A study of Bos taurus with 72 samples.

Results

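Bovine mammary epithelial cells (BMECs) that received histidine as the only essential amino acid (EAA) were compared with the same cells in medium without any EAA. BMECs are the milk-secreting cells of the cow's udder, and those used here were primary cells at 6 passages, of wild-type genotype, which had been separated from fibroblasts by how readily trypsin lifts them. All cultures were serum-starved overnight and then kept for 6 h in 1 of 12 media, with 6 libraries of RNA-seq for each medium. The histidine treatment (His) was DMEM-F12 medium lacking every EAA apart from histidine, which was restored to its concentration in the complete medium. The control (NEG) was the same medium with no EAA at all. The members are therefore the 6 His libraries, set against the 6 NEG libraries, out of 72 libraries. The other 54 libraries with a single EAA (Arg for arginine, Ile for isoleucine, Leu for leucine, Lys for lysine, Met for methionine, Phe for phenylalanine, Thr for threonine, Trp for tryptophan and Val for valine) and the 6 libraries in complete medium (POS) were used to ask whether histidine changed any gene beyond the other amino acids. His and NEG cells had the hormones and supplements of the growth medium before starvation in common, and the NEG cells lacked histidine along with all the other EAA.

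Histidine is an EAA that cows must obtain from feed, and the udder takes it up from blood to build caseins and whey proteins. In cells it is charged onto its own transfer RNA, it is the precursor of histamine and of the dipeptide carnosine, and its breakdown feeds the one-carbon pool. When any EAA runs short, uncharged transfer RNA activates the GCN2 kinase, which slows translation and raises genes of amino acid transport and synthesis, while the mTORC1 kinase loses activity. Leucine and arginine have known sensors upstream of mTORC1.

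The deposited values were FPKM, that is, reads per gene corrected for gene length and for the scaling factor of each library. The table held 29550 genes, and 12121 with a mean FPKM of at least 1 over the 72 libraries were tested. It names genes by 27570 Ensembl bovine identifiers and 1980 running names, and none of these could be paired with a gene symbol. Epithelial and fibroblast markers, casein genes and amino acid response genes could therefore not be looked up, and the purity of the cells was not checked. The RNA is bulk RNA, so fewer cells of a kind and less RNA per cell cannot be told apart. The replicates are called biological in the study's text, but nothing states that they came from separate cows, and p-values measure the spread between these libraries.

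Reads counted on genes ranged from 14247474 to 17236226 in His (median 16079129) and from 15907877 to 17910733 in NEG (median 16534944). NEG_2 stood apart from the other NEG libraries, and His_1 differed from the other His libraries by less. In NEG_2 the genes of the longest length class lay far lower against those of the shortest than in the other NEG libraries, with a difference of -0.93 between the class medians of log2(FPKM + 1), against -0.18 to -0.10 in the other 5. His_1 had a value of -0.31, and the other 5 His libraries lay between 0.02 and 0.24. By Dixon's criterion for 6 libraries NEG_2 was an outlier in this measure and His_1 was not. The median SD of a gene within His was 0.209 on the log2(FPKM + 1) scale and 0.170 without His_1, and within NEG it was 0.204 and 0.0946 without NEG_2. The omission of His_1 and NEG_2 together was set before the fits, with earlier results of these data known. The counts of changed genes and DEGs and the named genes are given with both libraries and without them.

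Histidine was followed by many small changes, more of them down than up. Of the 12121 genes, 7002 (57.8%) differed between His and NEG at a Benjamini-Hochberg adjusted p under 0.05 by limma. Of these, 2838 were higher in His (23.4% of the genes tested) and 4164 were lower (34.4%). The changes were small: the median size over the 7002 genes was 0.54 on the log2(FPKM + 1) scale, with quartiles of 0.40 and 0.72. The limit of 1 on this scale, a 2-fold change of FPKM + 1, was passed by 545 of them (4.5% of the genes tested). Among the 545, 496 fell and 49 rose. By the limits of the study, an unadjusted p under 0.05 and a change of more than 1 on the log2 scale, 556 genes (4.59%) were differentially expressed genes (DEGs), 53 up and 503 down.

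The balance of rises and falls depended on the scaling between libraries. With the deposited scaling 40.5% of the changed genes were higher in His, and the median log2 fold change of all 12121 genes was -0.07. When the libraries were rescaled by median ratios over the 12 libraries compared, that median was 0.03 and 50.9% of the 7238 changed genes were higher. With libraries scaled by total reads the median was 0.02 and 50.3% of 7144 changed genes were higher. Among DEGs the falls were still more numerous under both, with 301 down and 79 up under median ratios and 304 down and 77 up under total reads. The direction of small changes is thus relative to the scaling, while the excess of falls among DEGs was present under all 3.

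With all 12 libraries, in 3527 genes (29.1%) the FPKM of the 6 His libraries and the 6 NEG libraries did not overlap at all. Of these, 2328 were changed genes that fell and 1173 were changed genes that rose. Among the genes past the fold limit, 374 of the 496 that fell and 17 of the 49 that rose had ranges that did not overlap. The same 12 libraries chose these genes, so the counts are a description and no separate support.

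Leaving out His_1 and NEG_2 together raised the number of changed genes from 7002 to 8875, with 3705 higher and 5170 lower. Of the 7002 genes, 6941 (99.1%) were changed in the same direction without these 2 libraries, and in 0 of them did the fold change turn its sign. The libraries kept had also chosen the 7002 genes, so this is a description and no separate support. Of the 545 genes past the fold limit 518 stayed past it, and 703 were past it in all. Without His_1 alone there were 7486 changed genes and 847 DEGs in place of 556, and without NEG_2 alone there were 8166 changed genes and 439 DEGs. The 2 libraries thus moved the number of DEGs in opposite ways. With both left out there were 710 DEGs, 49 up and 661 down.

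To see how each library took part, the genes past the fold limit were chosen in the other libraries, always without His_1 and NEG_2, and their median difference from the NEG mean was then read in the library held out. For the genes chosen as falling, the median on the log2 scale was -0.38 in His_1, -0.80 in His_2, -1.01 in His_3, -1.41 in His_4, -1.20 in His_5 and -1.34 in His_6. All 6 His libraries lay on the falling side, and His_1 was nearest to NEG, although 89.98% of the 659 genes chosen were still below the NEG mean in it. The same median was 0.45 in NEG_2 and between -0.15 and 0.06 in the other NEG libraries. Seen from the other NEG libraries, NEG_2 was thus on the side away from His. For the genes chosen as rising, between 42 and 69 in number, the medians were 0.92 in His_1, 0.65 to 1.19 in the other His libraries, and -0.04 to 0.32 in NEG. On the rising side His_1 was like the other His libraries.

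**Figure D1:**
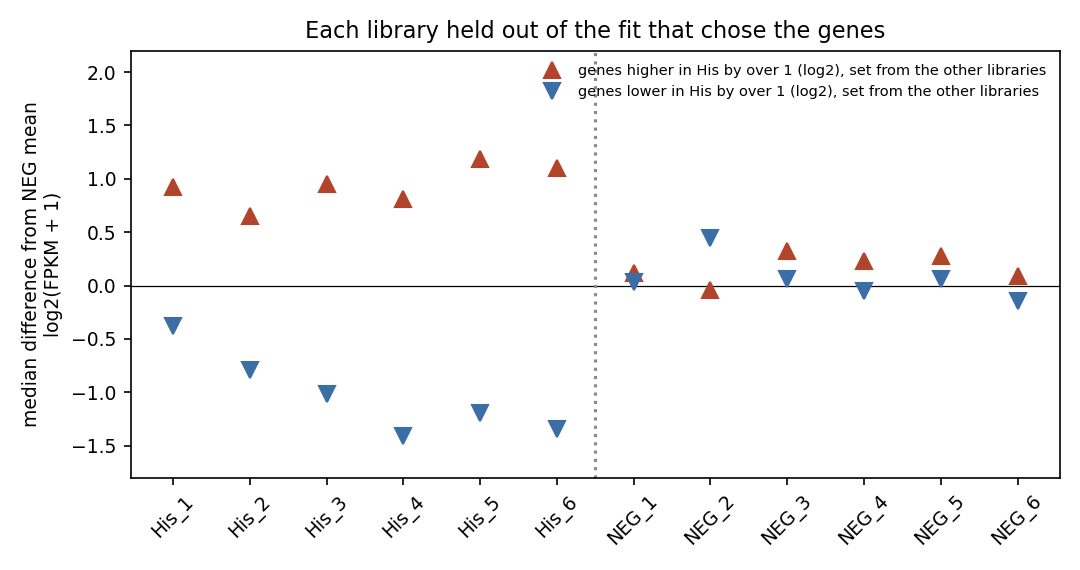
Median difference from the NEG mean, in log2(FPKM + 1), for each of the 12 libraries when it was held out of the fit that chose the genes (triangles up for genes chosen as rising, triangles down for genes chosen as falling). His_1 sits at -0.38 for the falling genes while the other His libraries sit between -0.80 and -1.41, and NEG_2 sits at 0.45.

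ENSBTAG00000051364 had the smallest p of all genes tested, with a recovered length of 1314 bp. Its FPKM was 36.0, 22.5, 33.3, 37.8, 25.5 and 46.5 in His_1 to His_6, and 331, 235, 325, 254, 251 and 246 in NEG_1 to NEG_6. The ranges did not overlap, which the choice of the 4 genes named for their size required, and neither His_1 nor NEG_2 stood out. The means were 33.6 ± 8.69 (SD, n = 6) in His and 274 ± 42.4 (SD, n = 6) in NEG, or 713 reads against 5686. The log2 fold change was -3.01 with a standard error of 0.16 (limma adjusted p = 5.0e-07), and -3.08 without the 2 libraries.

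The larger fall by size was that of ENSBTAG00000054257, with a recovered length of 55 bp and few reads. Its FPKM was 5.51, 11.0, 2.48, 1.21, 1.03 and 6.48 in His_1 to His_6, and 49.2, 28.3, 70.9, 43.6, 28.5 and 47.3 in NEG_1 to NEG_6. The lowest values were those of His_4 and His_5, and the His values rested on 1 to 10 reads per library. The means were 4.62 ± 3.86 in His and 44.6 ± 15.8 in NEG (SD, n = 6), the log2 fold change was -3.25 with a standard error of 0.41 (limma adjusted p = 0.00018), and it was -3.46 without the 2 libraries.

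The 2 genes with the largest rises were short as well. ENSBTAG00000042696, of 69 bp, had FPKM of 23.7, 12.3, 40.5, 10.6, 16.4 and 20.7 in His_1 to His_6, and 4.45, 1.07, 4.71, 6.41, 1.68 and 1.75 in NEG_1 to NEG_6. His_3 was the highest and NEG_2 the lowest library. The means of 20.7 ± 10.9 and 3.35 ± 2.14 (SD, n = 6) stood for 22.8 and 3.7 reads per library, and the log2 fold change was 2.34 with a standard error of 0.35 (limma adjusted p = 0.00026). Without the 2 libraries it was 2.09. ENSBTAG00000042684, of 87 bp, had FPKM of 9.76, 6.27, 7.83, 14.5, 12.4 and 4.78 in His_1 to His_6, and 1.41, 1.70, 2.24, 2.18, 2.004 and 0.695 in NEG_1 to NEG_6. His_4 was the highest and NEG_6 the lowest library. The means of 9.26 ± 3.71 and 1.71 ± 0.584 (SD, n = 6) stood for 13 and 2.3 reads per library. The log2 fold change was 1.87 with a standard error of 0.23 (limma adjusted p = 0.00018), and 1.85 without the 2 libraries.

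**Figure D2:**
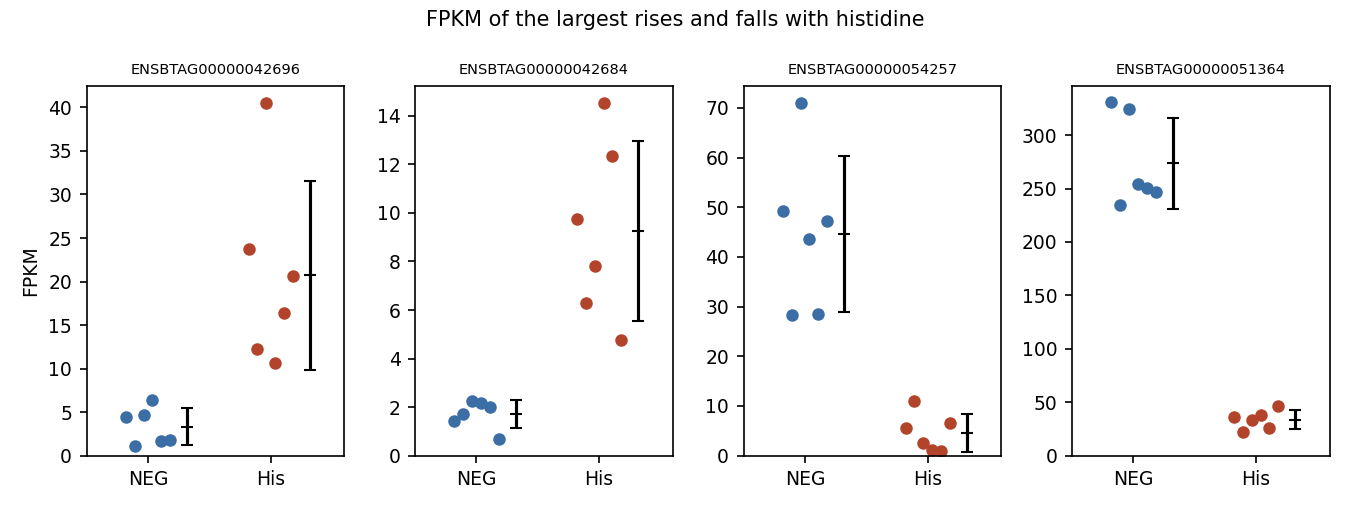
FPKM of the 2 genes with the largest rises and the 2 with the largest falls, 1 point per library, with the mean and SD of the 6 libraries as a bar beside the points; each panel has its own axis from 0. The genes were chosen for ranges that do not overlap, and ENSBTAG00000051364 goes from 235 or more in NEG to 46.5 or less in His.

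Rises and falls differed in the kind of gene. The 49 genes that rose past the fold limit had a median length of 137 bp, the 496 that fell one of 1271 bp, and all genes tested one of 2342 bp. Genes under 200 bp made up 405 of the 12121 genes, but 32 of the 49 rises past the fold limit were among them. Over all 49 genes the median was 5.67 reads per library in NEG and 18.2 in His. Of the 49, 12 had reads in every His library but none in 1 or more NEG libraries. The 496 falling genes had a median of 651 reads in NEG and 281 in His, and 17 of them had reads in every NEG library but none in 1 or more His libraries. When genes under 200 bp were left out, 17 rises and 477 falls past the fold limit were called. By these medians the large falls were better counted than the large rises, most of which were of genes under 200 bp. This does not hold for each gene. Of the falls past the fold limit 19 were of genes under 200 bp, and the largest, ENSBTAG00000054257, rested on few reads.

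The direction of the change moved with gene length. With the genes in 5 classes by length, the median log2 fold change was -0.19 in the shortest class (12 to 1232 bp), -0.17, -0.11 and -0.02 in the next classes, and 0.13 in the longest (3900 to 38086 bp). In the shortest class 283 genes rose (11.7%) and 786 fell (32.4%), and in the longest 866 rose (35.8%) and 514 fell (21.2%). Without the 2 libraries the medians ran from -0.21 to 0.05. The share that fell in the longest class was then 35.5% against 41.9% that rose, and in the shortest class 41.7% fell and 17.6% rose. Of all 12121 genes tested 5170 then fell and 3705 rose. The share of the shortest class that fell was thus close to that of all genes, and the share that rose was smaller. With all 12 libraries, the genes under 200 bp within the shortest class had a median of 0.18, with 59 rises (14.6%) and 28 falls (6.91%). Both shares were smaller than the 23.4% and 34.4% of all genes tested. After a trend on length was removed from each library there were 7711 changed genes, 51.2% of them higher in His, and 302 DEGs, of which 218 were down and 84 up.

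**Figure D3:**
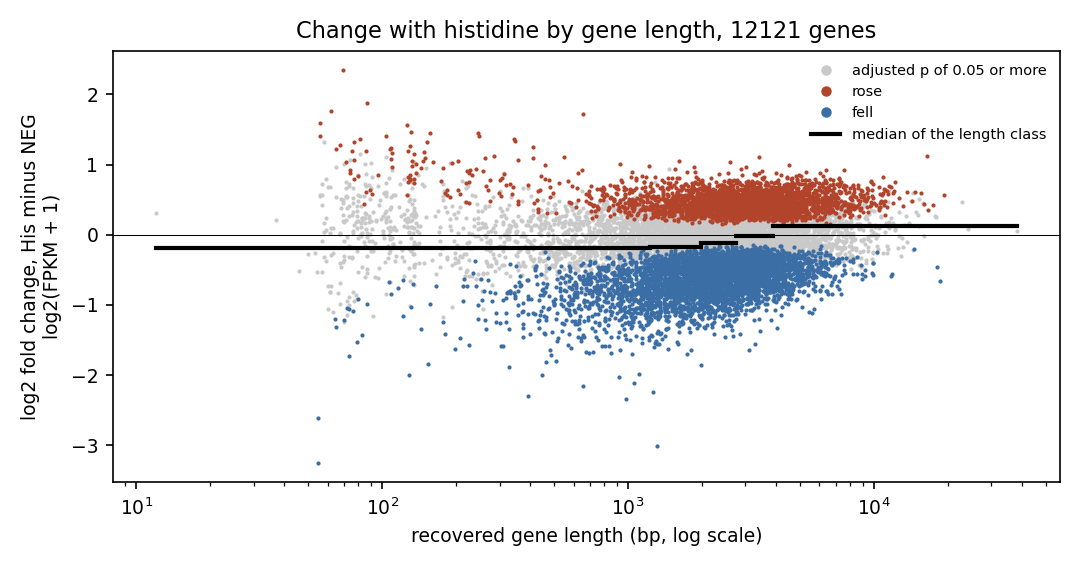
log2 fold change of each of the 12121 genes between His and NEG, in log2(FPKM + 1), against the gene length recovered from the values (log axis), with the median of each of 5 length classes as a black line. The class medians go from -0.19 in the shortest genes to 0.13 in the longest, and the rises over 1 are mostly of genes under 200 bp.

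By level, the share of genes that fell was 38.6% between 10 and 50 FPKM, 38.5% between 50 and 100 FPKM and 41.1% above that, beside 34.4% of all genes tested. Among the 767 genes of the highest class 315 fell and 116 rose (15.1%, beside 23.4% of all genes tested), with a median log2 fold change of -0.21. Without the 2 libraries 52.4% of this class fell and 31.2% rose. Of all 12121 genes tested 5170 then fell and 3705 rose, so the share of this class that rose was close to that of all genes. Of the 1344 genes under 2 FPKM, 18.5% fell and 10.3% rose, with a median of -0.04. No difference between classes was tested. Of the 462 genes tested under running names, 89 rose and 73 fell (median 0.04), against 2749 and 4091 of the 11659 genes with Ensembl identifiers (median -0.08).

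Fewer genes were detected in His than in NEG. Genes with FPKM above 0 numbered 17296, 16836, 15996, 15674, 16410 and 16826 in His_1 to His_6, and 17351, 16596, 17545, 17307, 17707 and 17118 in NEG_1 to NEG_6. The groups overlapped: His_1, His_2 and His_6 were above NEG_2, and His_1 was also above NEG_6. The means of 16506 ± 599 and 17271 ± 388 (SD, n = 6) differed by -764 (two-sided exact permutation test over 924 splits, p = 0.024, adjusted p = 0.032 over 3 tests of library values). At an equal depth of 14247474 reads the difference was -675 (exact permutation p = 0.026, adjusted p = 0.032). Without the 2 libraries the difference was -1057. No test is given for it, since His_1 was the highest His library and NEG_2 the lowest NEG library in this measure.

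The difference between the longest and the shortest class was tested in the same way. It was 0.028 ± 0.183 in His and -0.276 ± 0.322 in NEG (SD, n = 6; exact permutation p = 0.032, adjusted p = 0.032). Without the 2 libraries it was 0.096 and -0.145. His_1 was the lowest His library and NEG_2 the lowest NEG library in this same measure, so no test is given without them. Among all 12 treatments the mean of this difference was lowest in NEG, followed by Ile (-0.026), Thr (0.012) and His. The latter 3 are close to each other against SDs of 0.183 in His and 0.176 in Ile. The highest mean, 0.274 in Leu, rested on Leu_1 at 1.41, with the other 5 Leu libraries between 0.013 and 0.073. The part of this length difference in the calls for single genes was not tested beyond the removal of the trend.

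His was then compared directly with each of the other treatments, with no NEG library in the fits. Few genes told His from 7 of the other 9 amino acids. At an adjusted p under 0.05 by limma, 23 genes (0.19%) differed between His and Ile, 51 (0.421%) between His and Leu, 112 (0.924%) between His and Trp, 310 (2.56%) between His and Val, 324 (2.67%) between His and Lys, 370 (3.05%) between His and Arg, and 419 (3.46%) between His and Met. Between 3 and 49 of the genes in each of these comparisons were past the fold limit. Higher and lower in His were 11 and 12 genes against Ile, 18 and 33 against Leu, 64 and 48 against Trp, 178 and 132 against Val, 153 and 171 against Lys, 196 and 174 against Arg, and 169 and 250 against Met.

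Phe and Thr were unlike His. There 8162 genes (67.3%) differed between His and Phe, with 3435 higher and 4727 lower in His, and 8674 (71.6%) between His and Thr, with 3628 higher and 5046 lower. Past the fold limit were 253 genes against Phe and 375 against Thr. The comparison with NEG gave 7002 genes, 545 of them past the fold limit, and 8166 genes without NEG_2. The median SDs of a gene within Phe and Thr were 0.103 and 0.129, smaller than that of His, and the part of this spread in the counts was not tested. Against complete medium 3465 genes (28.6%) differed, 1754 higher and 1711 lower in His, and 779 were past the fold limit.

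How few genes differed depended on single libraries. Without His_1 the count rose to 549 against Ile and to 4445 against Lys, and fell to 29 against Leu, 74 against Trp and 138 against Val. It rose to 780 against Leu without Leu_1, to 3622 against Val without Val_3, to 2326 against Arg without Arg_4 and to 5959 against POS without POS_4. The 4 libraries were chosen after their values were seen, and median SDs of 0.430 in Leu, 0.385 in Arg, 0.398 in POS and 0.280 in Val were above that of His. A small count in these comparisons does not show that the amino acids acted alike.

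**Figure D4:**
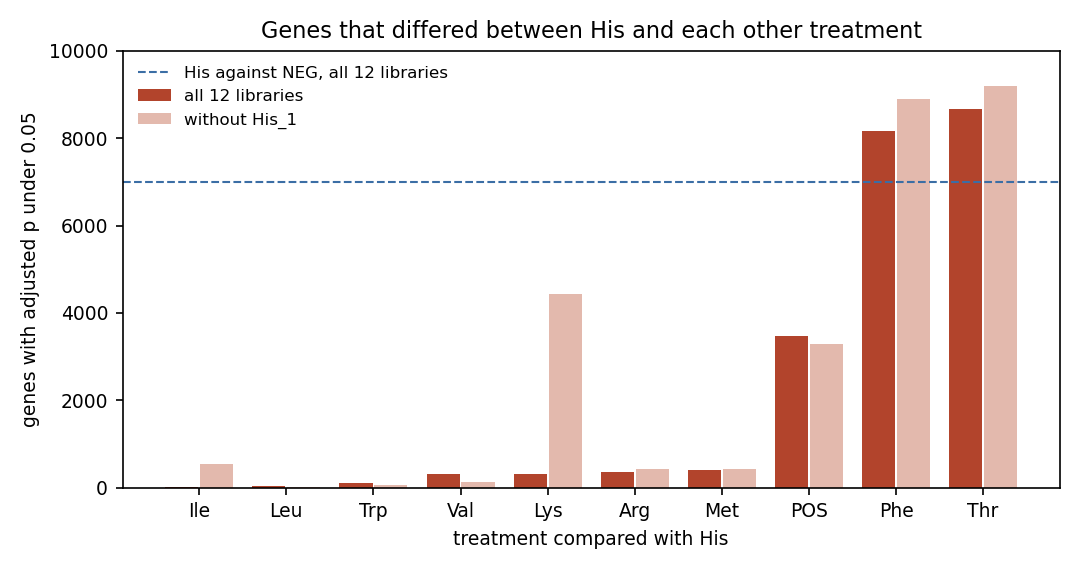
Number of genes with a limma adjusted p under 0.05 between His and each other treatment, with all 12 libraries (dark bars) and without His_1 (light bars); the dashed line is the count of 7002 against NEG. Phe and Thr stand at 8162 and 8674, the other 7 amino acids at 419 or fewer with all libraries, and Lys goes to 4445 without His_1.

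For the gene with the smallest p the treatments differed widely. The FPKM of ENSBTAG00000051364 was 460 ± 72.5 in Phe and 374 ± 108 in Thr (SD, n = 6), at or above its level of 274 in NEG, and it was 21.1 ± 8.91 in Ile, 27.6 ± 18.7 in Lys and 29.4 ± 10.8 in Leu, near its level of 33.6 in His. The other treatments held libraries of both kinds. In Val it was 271 in Val_3 and 9.68 to 24.1 in the other 5, in Trp 381 in Trp_1 and 10.0 to 32.9 in the others, in Arg 244 in Arg_4 and 21.7 to 35.5 in the others, and in POS 230 in POS_1 and 13.03 to 61.1 in the others. In Met it was 287 in Met_6, 156 in Met_1, 86.4 in Met_2 and 11.1 to 22.8 in the other 3. No His library reached the NEG range, which the choice of this gene required of His but not of the other treatments. His minus Phe was -3.76 and His minus Thr -3.42 on the log2 scale. The same His libraries chose the 4 genes named for their size, so their differences from Phe and Thr are a description, with no test. Neither the labels nor the study's text give a reason for the single libraries at the NEG level, and no comparison was repeated without Trp_1, Met_1, Met_6 or POS_1.

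ENSBTAG00000054257 stood at 63.8 ± 23.6 FPKM in Phe and 45.7 ± 18.5 in Thr, against 4.62 in His, and its His minus Phe and His minus Thr differences were -3.74 and -3.26 on the log2 scale. ENSBTAG00000042696 was at 10.8 ± 4.53 in Phe and 9.32 ± 4.99 in Thr against 20.7 in His (differences of 0.86 and 1.10 on the log2 scale), and at 12.4 ± 7.95 in Lys, 12.6 ± 4.42 in Trp and 31.9 ± 15.5 in Val. ENSBTAG00000042684 was at 2.85 ± 2.47 in Phe and 3.90 ± 2.65 in Thr against 9.26 in His (differences of 1.61 and 1.17 on the log2 scale), and at 4.29 ± 1.55 in Met. In Val it was at 9.08 ± 4.72, in Leu at 8.69 ± 7.97 and in POS at 8.69 ± 5.76, near its level in His. For these rising genes Phe and Thr lay close to the lowest of the other amino acids, and no difference between those was tested.

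Over the 496 genes that fell past the fold limit with histidine, the median difference from NEG on the log2 scale was -1.15 in His, a value that the choice of genes fixes. The same median was -1.62 in Leu, -1.33 in Val, -1.03 in Met, -0.95 in Trp, -0.94 in Arg, -0.93 in POS, -0.84 in Ile, -0.76 in Lys, -0.34 in Phe and -0.25 in Thr. Over the 49 genes that rose it was 1.19 in His, 1.54 in Val, 1.10 in Leu, 1.09 in Trp, 1.06 in Met, 0.94 in Ile, 0.93 in Lys, 0.87 in POS, 0.85 in Arg, 0.64 in Phe and 0.62 in Thr. All these medians share the 6 NEG libraries that chose the genes, so they are a description with no test. Without NEG_2 and His_1 the median over the falling genes was -1.20 in His, -1.54 in Leu, -0.24 in Phe and -0.16 in Thr. Over all 12121 genes the medians lay between -0.17 and -0.04.

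No gene passed the test for a change by histidine beyond the other 9 amino acids. A gene was called only where its His mean was outside the means of all 9 and the largest of the 9 p-values, adjusted over the 12121 genes, was under 0.05 in 1 limma fit of the 60 libraries with a single EAA. This held for 0 genes (0%), and the smallest adjusted p was 1. The His mean was the highest of the 10 in 654 genes and the lowest in 570, against 3810 and 2636 for Thr, 2343 and 3829 for Leu, and 199 and 267 for Lys. With no adjustment over genes, 5 genes (0.0413%) had all 9 p-values under 0.05 in 1 direction, 2 higher and 3 lower in His. Voom on the recovered reads also gave 0 genes with the adjustment and 5 without. Sample weights, which count scattered libraries less, gave 1 called gene. By the same rule 72 genes were called for Arg, 13 for Met, 1 each for Leu and Trp, and 0 for Ile, Lys, Phe, Thr and Val. These counts depended on Leu_1 and Arg_4, with 10495 and 11838 genes above 0. Without these 2 libraries 0 genes were called for His, 145 for Arg, 72 for Val, 37 for Met, 8 for Leu, 1 for Trp and 0 for Ile, Lys, Phe and Thr, and Leu was the highest in 1692 genes and the lowest in 2079.

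The 5 genes are named here after their values were seen, and no call rests on them. Of the 5, 3 were changed against NEG in the same direction. Of all genes tested there, 23.4% were higher and 34.4% lower in His. The same His libraries entered both fits, and with 5 genes no conclusion is drawn from this share. ENSBTAG00000007508 had FPKM of 12.0, 12.7, 14.0, 15.0, 14.5 and 14.9 in His_1 to His_6, and 9.26, 9.20, 10.2, 11.1, 10.3 and 11.2 in NEG_1 to NEG_6. The groups did not overlap, and the log2 fold change was 0.40 with a standard error of 0.08 (limma adjusted p = 0.0011), and 0.41 without the 2 libraries. Its His mean of 13.9 ± 1.22 was followed by Leu at 12.2 ± 0.961 and Arg at 12.1 ± 0.755 (SD, n = 6), and POS was the lowest treatment at 8.04 ± 0.969. The His minus Leu difference was 0.17 with a standard error of 0.09 in the direct comparison, which did not pass the test (limma adjusted p = 0.46).

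The next of the 3 was a gene without an Ensembl identifier, under a running name of the table. It had FPKM of 2.16, 1.43, 1.31, 1.88, 1.83 and 1.84 in His_1 to His_6, and 1.26, 1.496, 1.07, 1.23, 1.13 and 1.18 in NEG_1 to NEG_6. His_2 and His_3 were below NEG_2, so the groups overlapped. The log2 fold change was 0.29 with a standard error of 0.10 (limma adjusted p = 0.026), and 6 of 23 alternatives took it past 0.05. Without the 2 libraries it was 0.28 (limma adjusted p = 0.024). The His mean of 1.74 ± 0.317 was followed by Val at 1.28 ± 0.176 (SD, n = 6).

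ENSBTAG00000005630 had FPKM of 1.89, 2.34, 1.92, 1.16, 1.51 and 1.92 in His_1 to His_6, and 3.47, 1.78, 3.42, 3.29, 2.82 and 3.33 in NEG_1 to NEG_6. NEG_2 was the only NEG library inside the His range. The log2 fold change was -0.52 with a standard error of 0.14 (limma adjusted p = 0.0063), and -0.64 without the 2 libraries. The His mean of 1.79 ± 0.406 was the lowest of the 12 treatments, with Leu next at 2.39 ± 0.393 and Phe the highest at 3.73 ± 0.372 (SD, n = 6).

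The other 2 genes did not pass the test against NEG with all 12 libraries. ENSBTAG00000000683 had a mean of 12.2 ± 1.77 FPKM in His and 14.4 ± 1.30 in NEG (SD, n = 6), with a log2 fold change of -0.23 (limma adjusted p = 0.054). It passed in 6 of 23 alternatives, among them without the 2 libraries (-0.30, limma adjusted p = 0.013). Under median ratios it was -0.12 (limma adjusted p = 0.27), under total reads -0.13 (0.29), and with the length trend removed -0.089 (0.42). It was also the gene called beyond the other 9 with sample weights (limma adjusted p = 0.041). Its mean was lowest in His among the 12 treatments and highest in POS, at 21.0 ± 2.04. ENSBTAG00000007519 had 13.4 ± 1.86 in His and 12.4 ± 4.27 in NEG, with NEG_2 at 3.95, and its log2 fold change of 0.19 (limma adjusted p = 0.52) was -0.082 without the 2 libraries.

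**Figure D5:**
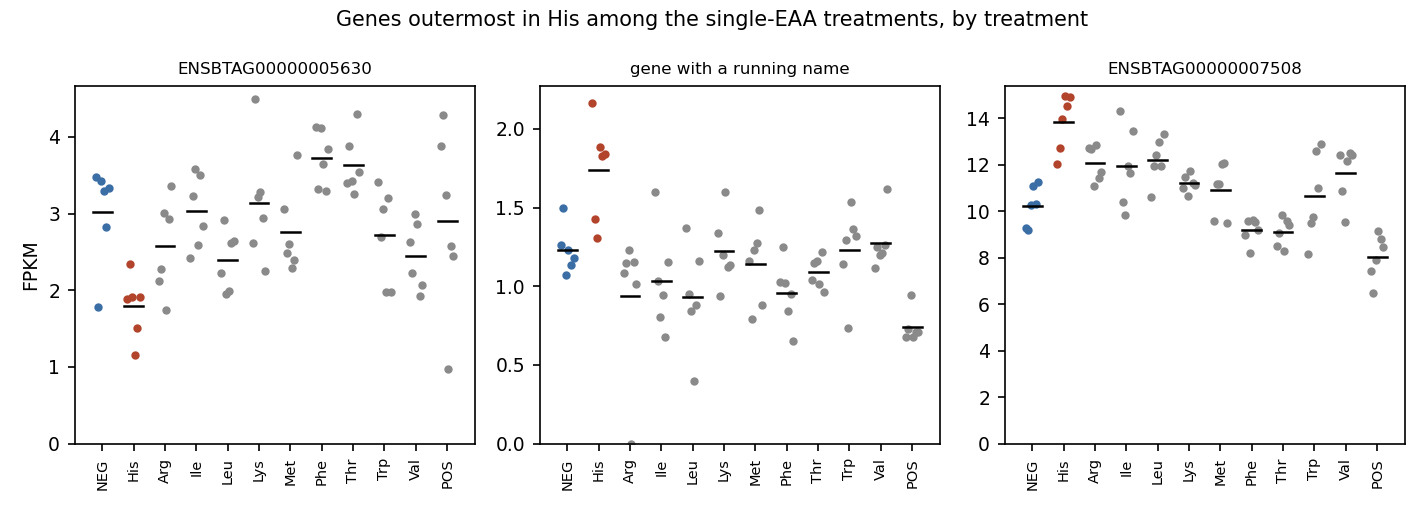
FPKM of the 3 genes outermost in His among the single-EAA treatments and changed against NEG, 1 point per library and the mean as a line, in all 12 treatments on axes from 0. His is at one end of the single-EAA treatments in each panel, at 1.79, 1.74 and 13.9 FPKM, but its libraries overlap those of its nearest neighbour.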

How the data were processed

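RNA-seq of BMECs was used for 12 media with 6 libraries each. Per the submitters' processing notes the tools were HISAT2 (version 2.0.5), StringTie (version 1.3.3b), featureCounts (version 1.5.0-p3) and DESeq2 (version 1.20.0), the last for the authors' own comparisons, which were not used here. The reference build was not given in the sources used here. GEO labels and the study's text name different library kits, culture plates and medium supplements, shared by all libraries. The authors deposited FPKM values, 1 column per library, each assigned by its name.

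The members, gene lists and tests were chosen with earlier results of these data known. Genes whose mean over all libraries was 1 FPKM or more were tested on log2(FPKM + 1) with limma (version 3.58.1 under R 4.3.3), using its trended prior. Fold changes on this scale understate the change of low genes. Changed means an adjusted p under 0.05, and p-values were adjusted over all genes tested. The 12 libraries of 2 treatments entered each pairwise fit. The rule for named genes took the largest rises and falls among changed genes whose ranges did not overlap and whose mean was at least 5 FPKM in the higher group, 2 in each direction since no symbol was available: the 37063 rows of the reference table matched 0 identifiers. Planned gene lists, cell type markers, promoter motifs and sequences were for that reason not run.

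Reads per gene were recovered from the FPKM, with a whole-number length for each gene: 99.98% of values above 0 came within 0.001 of whole reads (largest distance 0.00119). For genes with few reads the length and the reads are known only up to a common factor, so lengths near 12 bp can be too low. Reads serve to show depth, and PCR copies are not marked. Library values were compared by two-sided exact permutation tests. Both the read recovery and the fits were tested on simulated data. Tables and figures used Python (version 3.11.15), numpy (version 2.4.6), pandas (version 2.3.3) and matplotlib (version 3.10.9).

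Alternatives were each library left out, His_1 and NEG_2 left out together, Leu_1 and Arg_4 left out together, the replicate number as a block, a pseudocount of 0.1, no filter on low FPKM, scaling by median ratios or total reads, voom of limma on the recovered reads, 1 fit of all 12 treatments, and sample weights. Removal of the length trend, leaving out genes under 200 bp, pairwise fits, the direct comparisons without His_1, Leu_1, Arg_4, POS_4 or Val_3, the library values without both His_1 and NEG_2, and the other amino acids' calls beyond the rest without Leu_1 and Arg_4 were added after the data were seen.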

Additional observations from a re-analysis of the deposited data

Results flagged for a closer look

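Groups of 6 libraries were searched for a library far from the rest by Dixon's criterion (gap over range above 0.625) in library values, held-out medians and the named genes. Of the 30 groups searched, 3 held such a library, which was NEG_2 each time. Chance marks about 1 in 20 groups. NEG_2 had a difference of -0.93 between the longest and the shortest length class, against -0.18 to -0.10 in the other NEG libraries. Its held-out median over the genes that fell was 0.45, against -0.15 to 0.06 in the others. Its FPKM of ENSBTAG00000007519 was 3.95, against 12.6 to 15.4 in the others. Whether these have a shared source was not tested.

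The difference between histidine and each of the other 9 amino acids was tested directly, and genes that differed between 2 amino acids were found in every case. They numbered 23 for Ile, 51 for Leu, 112 for Trp, 310 for Val, 324 for Lys, 370 for Arg, 419 for Met, 8162 for Phe and 8674 for Thr.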

How the results depend on the processing

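The changed genes in His against NEG numbered 7002 and stayed within 1.5 times of that under every alternative run except the added fold limit, which left 545. They ranged from 6272 to 8166 with 1 library left out, and were 5389 in 1 fit of all 12 treatments and 9116 with sample weights. The 556 DEGs became 922 with a pseudocount of 0.1, 945 with voom on the recovered reads and 302 with the length trend removed, and ranged from 428 to 847 with 1 library left out. For the genes beyond the other 9 amino acids the count of 0 became 1 with sample weights. The 5 genes at unadjusted p-values became 80 with no filter on low FPKM (77 of them higher in His), 16 without Leu_1 and Arg_4, 101 with sample weights and 2 with pairwise fits, and ranged from 1 to 13 with 1 His library left out. In the direct comparisons the counts moved to 549 (Ile), 29 (Leu), 74 (Trp), 138 (Val) and 4445 (Lys) without His_1, while those of Arg and POS were 433 and 3291, and to 780 (Leu), 3622 (Val), 2326 (Arg) and 5959 (POS) without Leu_1, Val_3, Arg_4 and POS_4. The cause of these moves was not tested.

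The same-numbered His and NEG libraries deviated together with correlations from -0.30 to 0.13, over 0.1 in 1 of 6. With 6 pairs this does not settle whether the numbers pair the samples. With the replicate block 6315 genes were changed and 559 were DEGs, and 5 genes were beyond the other 9 at unadjusted p-values. The 4 genes named for their size kept their direction and an adjusted p under 0.05 in every alternative that tested them. With genes under 200 bp left out only ENSBTAG00000051364 was tested. Their log2 fold changes were 2.09 to 2.71, 1.71 to 2.36, -3.64 to -3.01 and -3.11 to -2.75. These same libraries chose the 4 genes, so the ranges are a description and no separate support. ENSBTAG00000007519, which did not pass the test, changed sign to -0.082 without both libraries and -0.062 with sample weights, and ranged from -0.075 (without NEG_2) to 0.27 with 1 library left out. Depth limits the rises past the fold limit, where the median gene was counted with 5.67 reads in a NEG library.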
